A study of Arabidopsis thaliana with 12 samples.

Results

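Mediator is the large protein complex that passes signals from gene-specific transcription factors to RNA polymerase II. Its subunits are grouped into a head, a middle and a tail, which form the core of the complex, and a separable kinase module. In Arabidopsis the PFT1 protein, also called MED25, is a Mediator subunit known for its roles in flowering and in jasmonate responses. The genes described here encode other Mediator subunits. They were taken as the probe sets whose single annotated symbol is MED followed by a number, together with AT5G20170, which encodes the MED17 subunit. This gave 5 genes with 1 probe set each, MED6, AT5G20170, MED9, MED31 and MED19A, among 22746 probe sets that named 13356 genes. A further probe set with a MED symbol and a second gene in its annotation was left out.

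Expression was measured with 12 one-colour arrays on total RNA of whole seedlings of Arabidopsis thaliana in the Columbia background. The seedlings were 10 days old, and all had grown on agar plates with MS salts under continuous cool-white light of 80 micromoles per second and square metre. The 4 groups were wild type (WT) at 16C, WT at 23C, the mutant pft1-1 at 16C and pft1-1 at 23C, with 3 biological replicates each, named by a letter from A to C in the sample titles. The mutant is represented by a single line, so an effect of PFT1 and other differences between the 2 lines cannot be told apart, and PFT1 itself is not analysed here, so the genotype was not checked on the targeted gene. Each value is the log2 expression of 1 probe set on 1 array, and because each probe set binds with its own strength, levels are compared between arrays and not between genes.

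The 4 arrays of letter C differed from the other 8 in their control probe sets. The 27 probe sets for poly-A spike-in controls averaged 4.57 to 8.72 on letter C arrays, against 2.45 to 2.54 elsewhere. The difference between 3' and 5' probe sets of 6 control transcript pairs, a measure of RNA and labelling quality, was 2.15 to 3.16 there, against 1.39 to 1.79 elsewhere. Each group holds 1 array of letter C. Of the marker genes listed for the seedling's organs, few had a named probe set. These were 1 of 12 for green tissue, 3 of 11 for roots and 0 of 6 for seed storage. RCA of green tissue stood at 14.3 to 14.8 on all arrays. Of the root genes PYK10 stood at 11.4 to 13.2, EXPA7 at 2.01 to 5.42 and EXPA18 at 2.29 to 5.64.

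MED19A rose from 16C to 23C in both genotypes. In the main fit, without a term for the letters, it was the 1 gene of the 5 to pass in any comparison. With the letters as a replicate block AT5G20170 passed too, between temperatures averaged over genotypes. Some other settings called MED9 or MED6 between temperatures. None of the 5 passed between pft1-1 and WT at either temperature. The 4 genes other than MED19A had log2 differences between -0.34 and 0.44 in the comparisons of 3 arrays with 3. Over all 12 arrays the log2 level spanned 1.61 for MED19A, 1.11 for MED6, 1.05 for MED31, 0.82 for AT5G20170 and 0.71 for MED9.

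**Figure D1:**
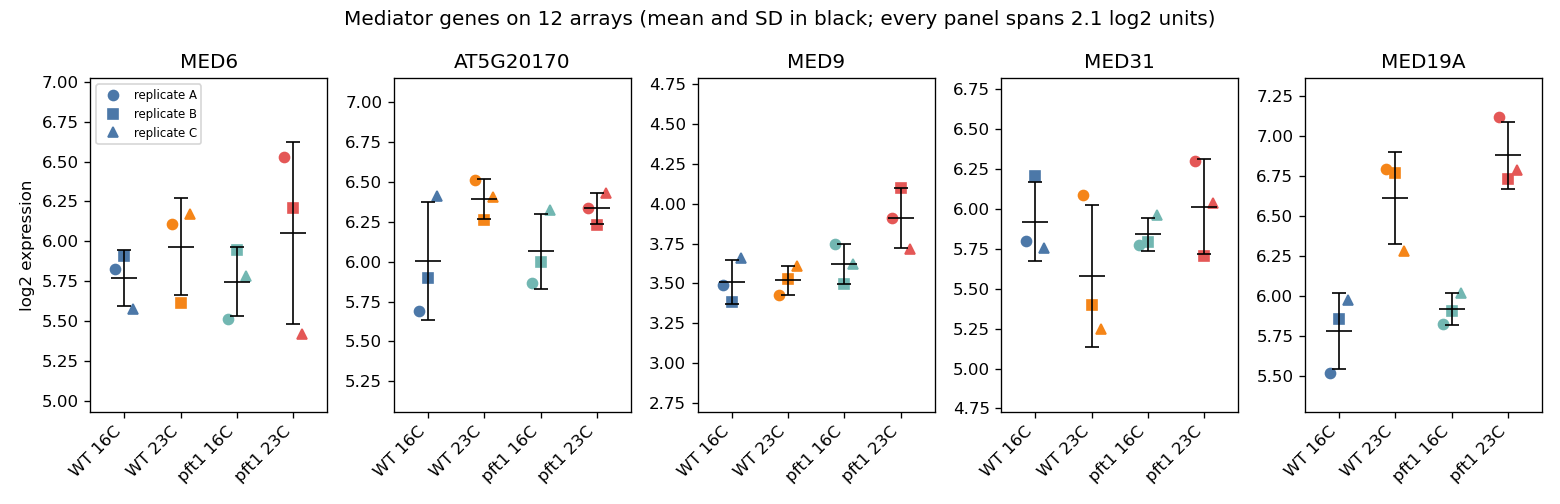
Log2 expression of the 5 Mediator genes (vertical axes, each spanning the same width) in the 4 groups, with 1 symbol per array, circles for replicate A, squares for B and triangles for C, and the group mean and SD (n = 3) in black. MED19A sits between 5.52 and 6.02 on the 6 arrays of 16C and between 6.28 and 7.12 on the 6 of 23C. The groups of the other genes overlap, apart from MED9, whose pft1-1 arrays at 23C lie above the WT arrays of both temperatures.

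The head of Mediator is the part that contacts RNA polymerase II most closely. MED6, a head subunit first described in yeast, measured 5.83, 5.91 and 5.57 (replicates in letter order, as in all such values) in WT at 16C and 6.11, 5.62 and 6.17 in WT at 23C. In pft1-1 it measured 5.52, 5.94 and 5.78 at 16C and 6.53, 6.21 and 5.42 at 23C. All 4 groups overlapped, and the highest and the lowest of the 12 values both came from pft1-1 at 23C. The lowest was on the letter C array, whose difference between 3' and 5' control probe sets, 3.16, was the largest of the 12. The group means ran in the order pft1-1 at 16C (5.75 ± 0.22, SD, n = 3), WT at 16C (5.77 ± 0.17, SD, n = 3), WT at 23C (5.96 ± 0.30, SD, n = 3) and pft1-1 at 23C (6.05 ± 0.57, SD, n = 3), and no neighbours in this order differed beyond their spread. Its residual SD of 0.35 was larger than that of 70.0% of all probe sets and the largest of the 5 genes.

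AT5G20170 encodes MED17, which holds the head together as a scaffold and, in Arabidopsis, is also known to be needed for the production of microRNAs. The gene measured 5.69, 5.90 and 6.41 in WT at 16C and 6.51, 6.26 and 6.40 in WT at 23C. In pft1-1 it measured 5.87, 6.001 and 6.33 at 16C and 6.33, 6.23 and 6.43 at 23C. The arrays of 23C lay close together in both genotypes, whereas at 16C the letter C array was the highest of its group and reached the level of 23C. Means were 6.001 ± 0.37 (SD, n = 3) for WT and 6.06 ± 0.23 (SD, n = 3) for pft1-1 at 16C. They were 6.33 ± 0.10 (SD, n = 3) for pft1-1 and 6.39 ± 0.13 (SD, n = 3) for WT at 23C. No neighbours in this order differed beyond their spread.

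The middle of Mediator links the head to the tail. MED9, a middle subunit, measured 3.49, 3.39 and 3.66 in WT at 16C and 3.43, 3.53 and 3.61 in WT at 23C. In pft1-1 it measured 3.75, 3.50 and 3.62 at 16C and 3.91, 4.10 and 3.72 at 23C. The 3 pft1-1 arrays at 23C lay above the WT arrays of both temperatures, and the other pairs of groups overlapped. The means ran in the order WT at 16C (3.51 ± 0.14, SD, n = 3), WT at 23C (3.52 ± 0.09, SD, n = 3), pft1-1 at 16C (3.62 ± 0.13, SD, n = 3) and pft1-1 at 23C (3.91 ± 0.19, SD, n = 3), and each neighbouring pair overlapped. Its level was low, at the 38.8th percentile of mean level among all probe sets, where the lower quartile of all values is 2.52.

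MED31, a middle subunit that in Arabidopsis is known from the control of stem cells in the root, measured 5.80, 6.21 and 5.75 in WT at 16C and 6.09, 5.40 and 5.25 in WT at 23C. In pft1-1 it measured 5.77, 5.79 and 5.96 at 16C and 6.30, 5.71 and 6.04 at 23C. All groups overlapped, and WT at 23C was the most spread, with letter A near the other groups and letters B and C below them. The means ran from WT at 23C (5.58 ± 0.44, SD, n = 3) through pft1-1 at 16C (5.84 ± 0.10, SD, n = 3) and WT at 16C (5.92 ± 0.25, SD, n = 3) to pft1-1 at 23C (6.02 ± 0.30, SD, n = 3), and no neighbours differed beyond their spread.

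MED19A, 1 of the genes for MED19, a subunit known in Arabidopsis as the target of an effector protein of the downy mildew pathogen, measured 5.52, 5.86 and 5.97 in WT at 16C and 6.79, 6.77 and 6.28 in WT at 23C. In pft1-1 it measured 5.82, 5.91 and 6.02 at 16C and 7.12, 6.73 and 6.79 at 23C. The highest array of 16C, at 6.02, lay below the lowest array of 23C, at 6.28, so the temperatures did not overlap in either genotype. Group means rose from WT at 16C (5.78 ± 0.24, SD, n = 3) and pft1-1 at 16C (5.92 ± 0.10, SD, n = 3) to WT at 23C (6.61 ± 0.29, SD, n = 3) and pft1-1 at 23C (6.88 ± 0.21, SD, n = 3). Within each temperature the 2 genotypes overlapped, and the step between pft1-1 at 16C and WT at 23C was the 1 place in this order without overlap. All 3 arrays of 23C lay above all 3 of 16C in 15.3% of all probe sets in WT and in 32% in pft1-1, and 5.5% had each of the 6 arrays of 23C above each of the 6 of 16C.

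The comparison of pft1-1 with WT asks whether loss of 1 Mediator subunit goes with altered transcript levels of others. At 23C, 0 of the 5 genes were called in limma at an adjusted p under 0.05, where 0.022% of all probe sets were called, and 1 of the 5 had an unadjusted p under 0.05, where 7.6% of all probe sets did. That gene was MED9, with a log2 difference of 0.39 (SE 0.11, limma adjusted p = 0.476). Groups with all pft1-1 arrays above all WT arrays, as in MED9, made up 4.2% of all probe sets at 23C. The difference of MED9 within letters A, B and C was 0.49, 0.57 and 0.11. MED31 had a larger difference with a larger error, 0.44 (SE 0.23, limma adjusted p = 0.759), and was positive in each letter, at 0.21, 0.31 and 0.79. Its size rested on single arrays, with 0.69 when array A of WT at 23C was left out, 0.27 when array C of that group was, 0.26 for A and B alone and 0.72 with array quality weights. MED19A differed by 0.27 (SE 0.17), which became 0.10 when array C of WT at 23C was left out and 0.15 for A and B alone. MED6 differed by 0.09 (SE 0.27), the balance of 0.42, 0.59 and -0.75 in the letters, and by 0.51 in letters A and B alone and 0.65 with array quality weights, without passing in either. AT5G20170 differed by -0.06 (SE 0.18). The median of the 5 differences was 0.27 beside 0.01 over all probe sets.

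At 16C, 0 of the 5 were called in limma, where 0.0352% of all probe sets were called, and 0 had an unadjusted p under 0.05, where 4.62% of all probe sets did. Each gene's genotypes overlapped, while 12.8% of all probe sets had groups without overlap. The log2 differences lay between -0.08 for MED31 and 0.13 for MED19A, with a median of 0.06 beside -0.01 over all probe sets. The unadjusted 95% intervals show what these 3 arrays against 3 leave possible. They ran from -0.26 to 0.52 for MED19A, from -0.14 to 0.36 for MED9, from -0.35 to 0.47 for AT5G20170, from -0.60 to 0.44 for MED31 and from -0.64 to 0.59 for MED6. At 23C the widest were those of MED31, from -0.09 to 0.96, and of MED6, from -0.53 to 0.70.

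Averaged over both temperatures, with 6 arrays against 6, all 5 differences were positive, from 0.0015 for AT5G20170 to 0.25 for MED9, and again 0 were called in limma, where 0.0572% of all probe sets were called. MED9 (SE 0.08, limma adjusted p = 0.623) was the 1 gene with an unadjusted p under 0.05, which 6.24% of all probe sets had. Over all probe sets 49.4% of the averaged differences were positive. The sign of AT5G20170 and of MED6 turned in some of the alternative settings, as their differences were near 0.

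**Figure D2:**
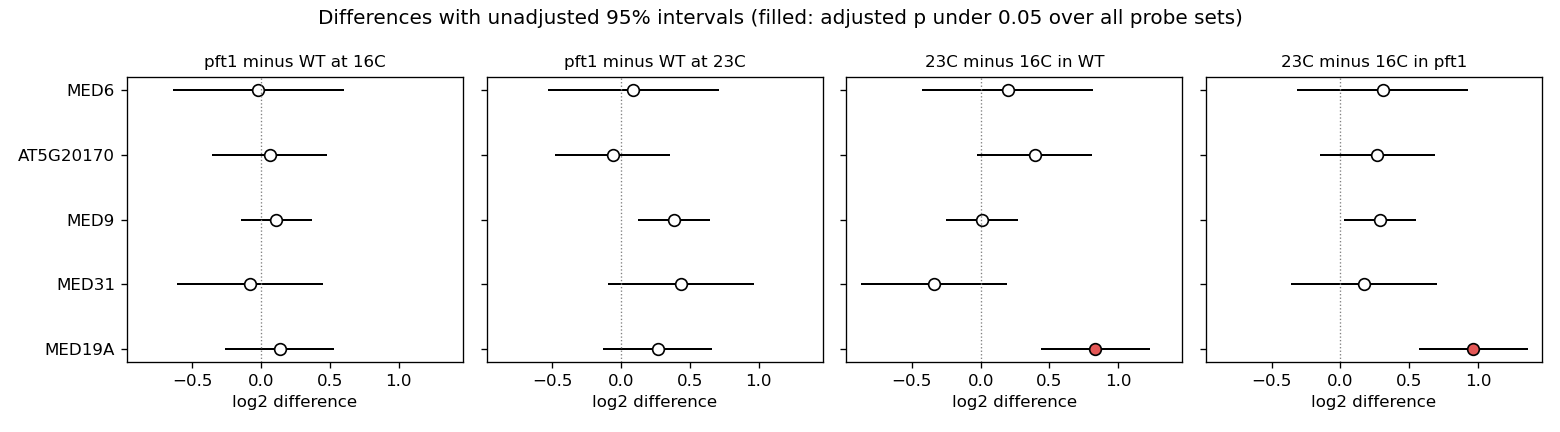
Log2 differences (horizontal axis) of the 5 Mediator genes between genotypes at 16C and 23C and between temperatures in WT and pft1-1, with unadjusted 95% intervals from limma and filled points for an adjusted p under 0.05 over all 22746 probe sets. The 2 filled points belong to MED19A, at 0.83 in WT and 0.97 in pft1-1, and the intervals of MED9 at 23C between genotypes and in pft1-1 between temperatures also exclude 0.

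The comparison of 23C with 16C shows how the same genes vary with growth temperature. MED19A rose by 0.83 (SE 0.17, limma adjusted p = 0.031) in WT, a ratio of 1.78, and by 0.97 (SE 0.17, limma adjusted p = 0.0065) in pft1-1, a ratio of 1.95. In WT 1 of 5 genes was called, where 4.89% of all probe sets were called and 1.74% were called higher at 23C. In pft1-1 1 of 5 was called too, where 17.7% of all probe sets were called and 8.41% were called higher. Averaged over the genotypes the rise of MED19A was 0.90 (SE 0.12, limma adjusted p = 0.0012), and 1 of 5 was called where 23.7% of all probe sets were called. Its difference exceeded those of 95.9% of all probe sets in WT and of 93.6% in pft1-1.

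The other genes did not pass between temperatures. AT5G20170 had a log2 difference of 0.39 (SE 0.18, limma adjusted p = 0.293) in WT and of 0.27 (SE 0.18, limma adjusted p = 0.331) in pft1-1. Averaged over the genotypes it was 0.33 (SE 0.13, limma adjusted p = 0.0967). With the letters as a replicate block it passed (limma adjusted p = 0.0478), so that 2 of the 5 genes were called, where 28.6% of all probe sets were called. MED9 had 0.01 (SE 0.11) in WT and 0.29 (SE 0.11, limma adjusted p = 0.112) in pft1-1. MED6 had 0.20 (SE 0.27) in WT and 0.31 (SE 0.27, limma adjusted p = 0.453) in pft1-1. In pft1-1 MED9 passed after renewed quantile normalisation (0.46, limma adjusted p = 0.0156), median centring (0.39, limma adjusted p = 0.0353) and array quality weights (0.37, limma adjusted p = 0.00798), and MED6 with array quality weights (0.60, limma adjusted p = 0.0226). Of all probe sets 18.6%, 20.2% and 40.5% were called in pft1-1 under these settings, in the same order. MED31 had -0.34 (SE 0.23, limma adjusted p = 0.519) in WT and 0.17 (SE 0.23, limma adjusted p = 0.618) in pft1-1, so it was the 1 gene whose mean was lower at 23C in 1 genotype and higher in the other. The median of the 5 was 0.20 in WT, beside 0.02 over all probe sets, and 0.29 in pft1-1, beside 0.04.

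The rise of MED19A was present in each replicate letter, with unequal size. In WT it was 1.28 in letter A, 0.91 in letter B and 0.31 in letter C, and in pft1-1 it was 1.301, 0.83 and 0.77. The difference of AT5G20170 was likewise largest in letter A, at 0.82 in WT and 0.47 in pft1-1, and near 0 in letter C, at -0.01 and 0.11. In letters A and B alone MED19A rose by 1.06 in pft1-1 (limma adjusted p = 0.031) and had a difference of 1.09 in WT that did not pass with these 8 arrays (limma adjusted p = 0.0538). AT5G20170 then passed for the average over genotypes, at 0.47 (limma adjusted p = 0.0243), where 19.0% of all probe sets were called. MED6 and MED31 changed sign between letters in both genotypes. In letters A and B alone MED6 had -0.0046 in WT and 0.64 in pft1-1, and neither passed.

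**Figure D3:**
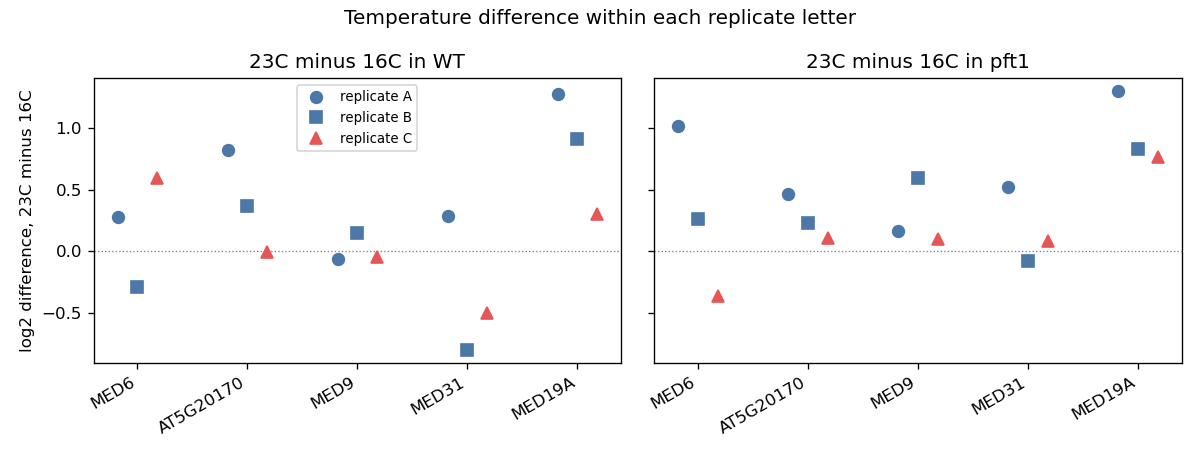
Log2 difference of 23C minus 16C (vertical axis) of the 5 Mediator genes within each replicate letter, in WT (left) and pft1-1 (right), with the letter C pairs in red. MED19A is above 0 in all 6 pairs, from 0.31 to 1.301, whereas MED6 and MED31 fall on both sides of 0.

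In WT the difference of MED19A stayed between 0.70 and 1.09 in all 21 alternatives, but its call was lost in 8 of them. It was lost when any 1 array of WT at 16C was left out (limma adjusted p = 0.0661 for A, 0.0864 for B and 0.0543 for C), likewise for A (0.103) or B (0.0913) of WT at 23C and for B of the mutant at 16C (0.0545), and with only the 6 arrays compared (limma adjusted p = 0.133). Over all probe sets 1.68% to 4.77% were called in WT under these settings with 1 array left out, and 1.53% with only the 6 arrays, against 4.89%. In pft1-1 and in the average over genotypes MED19A kept its call under all alternatives run, with adjusted p up to 0.031 and 0.0093.

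Whether the temperature difference itself depended on genotype was tested by the interaction. Of the 5 genes 0 were called in limma, where 0% of all probe sets were called, and 0 had an unadjusted p under 0.05, where 5.54% of all probe sets did. The log2 interaction was 0.13 (SE 0.24, 95% interval from -0.42 to 0.68) for MED19A, whose rises in WT and pft1-1 therefore did not differ beyond their error. The largest was that of MED31, 0.52 (SE 0.33, 95% interval from -0.22 to 1.26, limma adjusted p = 0.947). That of MED6 was 0.11 (SE 0.38), and 0.64 in letters A and B alone. The comparisons between genotypes and those between temperatures use the same 4 groups, so their values are not independent.

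Other measures moved with temperature too. Of 11 root marker genes 3 had a named probe set, and all 3 had lower means at 23C. PYK10, a root glucosidase, fell by 0.93 in pft1-1 (SE 0.26, limma adjusted p = 0.0398), and in WT its difference was -0.58 (SE 0.26, limma adjusted p = 0.285). EXPA18, an expansin of root hairs, fell by 1.83 averaged over genotypes (SE 0.57, limma adjusted p = 0.047). For EXPA7, a similar expansin, it was -1.51 with an SE of 0.66 (limma adjusted p = 0.133). PYK10 ran from 12.9 to 13.2 in WT at 16C, from 12.3 to 12.8 in WT at 23C, from 12.3 to 13.2 in pft1-1 at 16C and from 11.4 to 12.3 in pft1-1 at 23C. At 23C EXPA18 lay between 2.29 and 2.63 and EXPA7 between 2.01 and 2.34, about the lower quartile of all values, so the sizes of their differences are uncertain. At 16C EXPA7 was as low in letters B and C of WT, at 2.04 and 2.34, and in letter C of pft1-1, at 2.24. It stood at 5.42 in letter A of WT and at 5.07 and 4.65 in letters A and B of pft1-1. EXPA18 measured 2.38 in letter C of pft1-1 at 16C, against 3.15 to 5.64 on the other arrays of 16C. In whole seedlings fewer cells of a type and less RNA per cell cannot be told apart, and the part of root content in the rise of MED19A was not tested. The call of PYK10 in pft1-1 was lost in 11 of 21 alternatives, with limma adjusted p up to 0.129, and that of EXPA18 without any 1 of 10 arrays, with limma adjusted p up to 0.102.

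For comparison with the wider machinery, the list of Mediator and RNA polymerase II subunit genes was searched in the annotation. Of the 40 loci of the Mediator list 6 were counted, the 5 genes above and AT2G22370, a head subunit listed with MED18 as a synonym. AT5G20170 had no Mediator name in the annotation and was counted because it was among the genes chosen at the outset. Another 12 loci that carried only a locus tag in the annotation were not counted. AT2G22370 had log2 differences between temperatures of -0.18 (SE 0.32) in WT and -0.41 (SE 0.32, limma adjusted p = 0.397) in pft1-1, and between genotypes of 0.20 (SE 0.32) at 16C and -0.03 (SE 0.32) at 23C. Of the 6 Mediator genes 1 was called in each temperature comparison, MED19A. Of all probe sets 4.89% were called in WT, 17.7% in pft1-1 and 23.7% in the average over genotypes. Between genotypes 0 of the 6 were called, where 0.0352% of all probe sets were called at 16C, 0.022% at 23C and 0.0572% averaged over temperatures. Of the 35 general transcription factor loci 0 had a matching name.

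Of 15 RNA polymerase II subunit genes 6 had a named probe set, and their temperature differences were negative in both genotypes for all 6, while 63.7% of all probe sets in WT and 62.9% in pft1-1 had positive ones. The median was -0.28 in WT and -0.29 in pft1-1, beside 0.02 and 0.04 over all probe sets. In WT 0 of the 6 were called in limma, where 3.15% of all probe sets were called lower, and 2 had an unadjusted p under 0.05, where 18.7% of all probe sets did. In pft1-1 1 was called, where 9.27% of all probe sets were called lower at 23C. It was NRPB9B, which encodes a form of the RPB9 subunit, also shared with the plant-specific polymerases IV and V. It measured 5.96, 6.47 and 6.43 in WT at 16C and 4.91, 4.88 and 6.02 in WT at 23C. In pft1-1 it measured 6.37, 6.08 and 6.60 at 16C and 4.61, 4.56 and 3.25 at 23C. The pft1-1 arrays of the 2 temperatures were far apart, and the letter C array of WT at 23C lay among those of WT at 16C.

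NRPB9B thus fell by 2.21 (SE 0.42, limma adjusted p = 0.0082) in pft1-1 and in WT the change was -1.02 with an SE of 0.42 (limma adjusted p = 0.225). In letters A and B alone it fell in WT as well, by 1.32 (limma adjusted p = 0.0478). The interaction was -1.19 (SE 0.59, limma adjusted p = 0.938), so the difference between genotypes did not pass. In letters A and B alone the difference in pft1-1 was -1.64 and the interaction -0.32, so the size of the interaction rested on letter C. Between genotypes 0 of the 6 polymerase genes were called at 16C or 23C in limma, where 0.0352% and 0.022% of all probe sets were called. An unadjusted p under 0.05 was found for 1 of the 6 at 23C and 0 at 16C, against 7.6% and 4.62% of all probe sets. The largest differences were those of NRPB9B at 23C, -1.13 (SE 0.42, limma adjusted p = 0.584), and of NRPB7, another subunit, at 16C, 0.44 (SE 0.35). Without letter C that of NRPB9B was -0.31, and it was -0.68 when only the mutant's C array at 23C was left out and -0.75 when only that of WT was. NRPB9A, the other gene for RPB9, stood between 2.58 and 3.56 on all arrays, near the lower quartile, and had differences of -0.21 in WT and -0.19 in pft1-1.

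**Figure D4:**
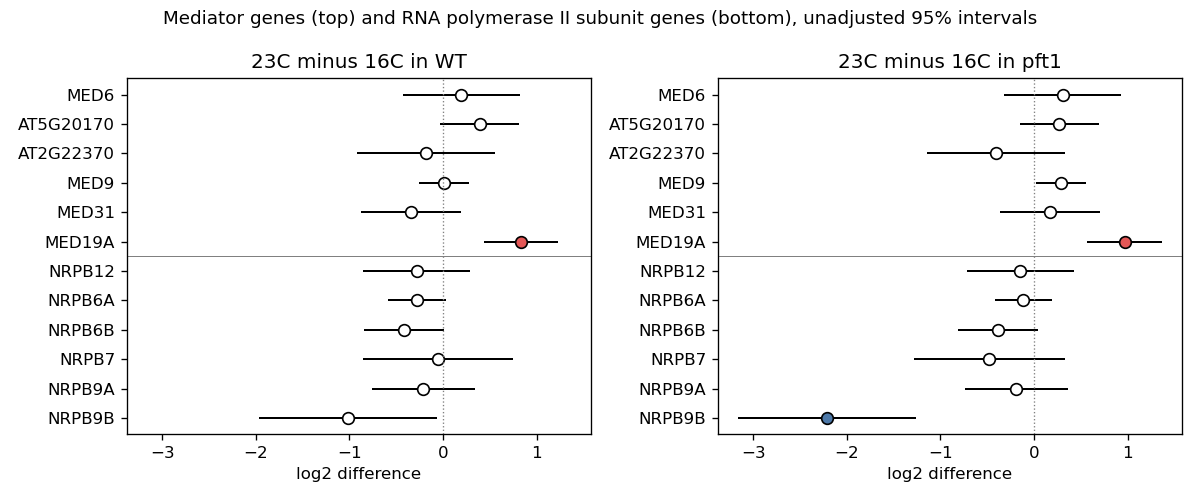
Log2 difference of 23C minus 16C (horizontal axis) with unadjusted 95% intervals for 6 Mediator genes (above the line) and 6 RNA polymerase II subunit genes (below it) in WT and pft1-1, with filled points for an adjusted p under 0.05 over all probe sets. MED19A lies to the right of 0 in both panels, and NRPB9B, at -1.02 and -2.21, lies farthest to the left.

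The genes most like each Mediator gene were taken as the 3 with the highest Pearson correlation over the 12 arrays, among 13512 other probe sets with 1 gene. These arrays share groups and letters, so the correlations describe likeness of pattern only. For MED19A they were AT5G08500 (r = 0.97), AT3G11290 (r = 0.97) and AT1G60670 (r = 0.95). AT5G20170 was most like AT4G10060 (r = 0.94), AT2G32000 (r = 0.89) and AT1G21160 (r = 0.88). MED31 was most like AT3G11830 (r = 0.89), MED6 most like AT1G23130 (r = 0.86), and MED9 most like EFR (r = 0.84), which encodes a receptor for a bacterial elongation factor. The best match of MED9 was thus less close than that of MED19A.

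Position in the genome was compared by gene order alone. MED31 and AT5G20170 lie on chromosome 5 with 27 protein-coding genes between them in the gene table, MED19A on the same chromosome, MED9 on chromosome 1 and MED6 on chromosome 3. Of the genes up to 2 places to either side of the 5, 9 had a named probe set, and at 23C 0 of them were called higher and 2 lower in WT, where 3.15% of all probe sets were called lower, and 0 higher and 3 lower in pft1-1, where 9.27% were. AT5G12220, next to MED19A, had temperature differences of 0.14 (SE 0.18) in WT and -0.23 (SE 0.18) in pft1-1, and neither passed. The 3 called neighbours were AT5G19930, AT5G20160 and AT5G20180, named after their values were seen, which lie near MED31 and AT5G20170. AT5G20180, next to AT5G20170, fell at 23C by 1.07 (SE 0.16, limma adjusted p = 0.0101) in WT and by 1.01 (SE 0.16, limma adjusted p = 0.0045) in pft1-1.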

How the data were processed

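The deposited values, 1 for each array and probe set, were taken as log2 expression from their range and from RMA, a method that returns log2 values. RMA and affy are named, without versions or settings, per the submitters' processing notes. Total RNA of 5 ug per sample was biotin-labelled, per the labels' protocols. No other step is given in the sources used here. Precision is limited by the number of arrays.

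After 64 control probe sets were set aside, 22746 were fitted without a filter in limma 3.58.1 (R 4.3.3) with means of the 4 groups (lmFit, eBayes, 8 residual degrees of freedom). Calls needed p under 0.05 after Benjamini-Hochberg adjustment across the whole table. SE and 95% intervals are limma's moderated ones. Gene names came from the platform annotation (13513 probe sets with 1 gene, 503 with several, 8730 with none) matched by Entrez identifier to a RefSeq gene table, which matched all 5 members. The procedure was also run on simulated data of independent normal noise with known changes and without any effect of the letters. That run cannot speak to the correlation of residuals within letters, and its outcome is not used here. Python 3.11.15 and matplotlib 3.10.9 made tables and plots.

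The members and lists were chosen with earlier results of these data known. All members are named, up to 6 called genes per list and comparison, and the list member with the largest difference where none was called; neighbouring genes and NRPB9A were named after their values were seen. Letters were taken to pair arrays where residuals of all 3 letters correlated above 0.1. This held for pft1-1 minus WT at 23C (0.129, 0.473 and 0.158), temperature in WT (0.421, 0.274 and 0.529) and temperature in pft1-1 (0.200, 0.196 and 0.339). It did not hold for pft1-1 minus WT at 16C (0.357, -0.101 and 0.474). The main fit had no term for the letters, so its SE, intervals and adjusted p leave this pairing out. With the replicate block, which includes it, 8.17% of all probe sets were called between temperatures in WT, against 4.89%. In pft1-1 it was 22.7%, against 17.7%. The alternatives are a replicate block, letter C as a block or left out, an intensity trend, fewer arrays, the upper 60% of probe sets, renewed quantile normalisation, median centring, array weights and each array left out.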

Additional observations from a re-analysis of the deposited data

How the results depend on the processing

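Of 713 differences of the 5 genes recomputed under 21 alternatives, of which 12 left out 1 array each, 658 kept their direction and side of the threshold, 8 lost a call, 12 gained one and 35, all of them uncalled, changed sign. Those 8 lost calls are of MED19A in WT. Between temperatures in WT the count of called genes fell from 1 to 0 with letters A and B alone and with only the arrays compared, and was 0 to 1 with 1 array left out. Over all probe sets 2.11% and 1.53% were called under those first 2 settings and 1.68% to 5.94% with 1 array left out, against 4.89%. In pft1-1 it was 2 with renewed quantile normalisation and with median centring, where 18.6% and 20.2% of all probe sets were called against 17.7%, and 3 with array quality weights, where 40.5% were. Averaged over genotypes it was 2 with letters A and B alone, with the replicate block, with letter C as a block, with renewed quantile normalisation and array quality weights, 3 with median centring, and 1 to 2 with 1 array left out (2 without replicate C of WT at 16C). Over all probe sets 19.0% to 40.4% were called for that average under the settings named, against 23.7%. The replicate block changed no other call of the 5 genes. With array quality weights AT5G20170 turned to -0.084 between genotypes at 16C, to -0.046 averaged over temperatures and to 0.074 in the interaction, MED6 at 16C to 0.090 and MED18 between temperatures in pft1-1 to 0.060. With letters A and B alone the temperature difference of MED6 in WT was -0.0046 and the interaction of MED19A -0.030. With median centring, which shifted the median of all probe sets in pft1-1 by 0.10, the averaged temperature difference of MED31 was 0.0014. With 1 array left out, genotype differences at 16C ran from -0.090 to 0.27 for AT5G20170, from -0.16 to 0.064 for MED31, from -0.00025 to 0.23 for MED19A and from -0.12 to 0.094 for MED6. At 23C that of MED6 ran from -0.15 to 0.41, and averaged over temperatures AT5G20170 ran from -0.075 to 0.10 and MED6 from -0.086 to 0.19. Temperature differences in WT ran from -0.054 to 0.083 for MED9 and from -0.40 to 0.086 for MED18. The interaction ran from -0.33 to 0.030 for AT5G20170, from -0.033 to 0.27 for MED19A and from -0.13 to 0.43 for MED6. The causes were not tested. Restricting to the upper 60% of probe sets left MED9 out, so it has no value there. With 3 arrays per group, differences of the size seen between genotypes are within the intervals, and NRPB9A, and EXPA7 and EXPA18 at 23C, lie close to the lower quartile of signal.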
